A study of Mus musculus with 12 samples.

Results

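LK cells from mice lacking 1 allele of Kdm6b (Kdm6bΔ/+) were compared with LK cells from wild-type (WT) mice across all genes, to describe cells with the deletion and without an Asxl1 mutation. LK cells are the Lin-cKit+ cells of the bone marrow: they are negative for lineage markers of mature blood cells and positive for cKit, the receptor for stem cell factor, and they comprise hematopoietic stem cells and the progenitors that follow them. The comparison used the 3 Kdm6bΔ/+ and the 3 WT libraries, taken by their labelled genotype, which are 6 of the 12 libraries of the study. The other 6 libraries, 3 from mice with the Asxl1Y588XTg transgene, which encodes a truncated ASXL1, and 3 from mice with Asxl1Y588XTg and Kdm6bΔ/+ together, provided values on a second genetic background. Each library came from a different C57BL/6 mouse, 12 months old, whose LK cells were enriched with beads. In Kdm6bΔ/+ mice, a floxed Kdm6b allele was excised by Cre from the Mx1Cre transgene, whose promoter responds to interferon, after injection of pI:pC, a synthetic RNA that induces interferon. Mx1Cre is active in blood cells and also in other interferon-responsive cells. Whether the WT mice carried Mx1Cre or were injected with pI:pC is not given in the sources used here, and if they did not, the effects of the deletion, of Cre, and of pI:pC cannot be told apart.

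KDM6B, also named JMJD3, is a demethylase of the JmjC family that takes methyl groups off H3K27me3, the histone mark that polycomb repressive complex 2 (PRC2) places on silent genes. Its relative KDM6A, also named UTX, has the same activity and is encoded on the X chromosome, and UTY is the related protein of the Y chromosome. In blood cells, KDM6B is best known for its induction by inflammatory signals and for its part in the expression of inflammatory and developmental genes.

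The WT libraries held 16310456 to 19208274 counted reads and the Kdm6bΔ/+ libraries 14451522 to 17981795. Most progenitor markers were present at like levels in both groups. Kit was at 326 to 360 CPM (read counts per library scaled to 1 common total) in WT and 324 to 356 in Kdm6bΔ/+, and Mpo at 9337 to 10700 and 9512 to 12651 CPM. Cd34 was at 139 to 149 and 124 to 151 CPM, and Myb at 486 to 591 and 498 to 571 CPM. The progenitor gene Gata2 was lower with overlap, at 41.4 to 60.1 CPM in WT and 32.1 to 46.8 in Kdm6bΔ/+. The T cell marker Cd3e (at most 0.615 CPM) and the endothelial marker Cdh5 (at most 0.818 CPM) were near 0 in all 6 libraries. Other markers of lymphoid and stromal cells were detected in both groups. Lck was at 7.16 to 9.27 CPM in WT and 4.38 to 5.26 in Kdm6bΔ/+, and the B cell gene Ebf1 at 11.4 to 29.4 and 11.4 to 23.9. The stromal genes Cxcl12 and Col1a1 were at 4.07 to 23.0 and 21.7 to 28.7 CPM in WT. In Kdm6bΔ/+ they were at 12.6 to 35.6 and 20.2 to 42.8 CPM. Neutrophil granule transcripts were abundant, with summed levels of 81686 to 110953 CPM in WT and 94985 to 100953 CPM in Kdm6bΔ/+. Y-linked transcripts such as Ddx3y were found in 2 of 3 Kdm6bΔ/+ libraries, replicates 1 and 3, and in 0 of 3 WT libraries, so the groups were not matched in sex. WT replicate 2 stood apart from the other WT libraries, with a chi-square value per gene of 32.8 and 28.3 against replicates 1 and 3, where the other pairs of replicates had 11.6 to 15.1 and counting noise alone gives 1. Because the cells were measured in bulk, fewer cells of a type and less RNA per cell cannot be told apart in any of the values below.

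Kdm6b transcripts were lower in every Kdm6bΔ/+ library than in every WT library. The normalized read count, that is, the count scaled to a library of 16900100 reads, was 2037, 2256, and 1777 in WT and 1543, 1454, and 1280 in Kdm6bΔ/+. The groups did not overlap, and the mean in Kdm6bΔ/+ was 70.5% of that in WT. The log2 fold change was -0.51 (SE 0.11, 95% confidence interval -0.74 to -0.28), with an adjusted p of 0.279 by the quasi-likelihood test of edgeR, adjusted for all 15825 genes tested by the method of Benjamini and Hochberg. The targeted gene therefore had an interval below 0 but did not pass the threshold used for all genes. Kdm6b lies at chr11:69398508-69413675 (mm10), and reads of the antisense gene Kdm6bos, which overlaps it, were also lower in every Kdm6bΔ/+ library (14.8, 18.7, and 9.16 against 3.59, 3.77, and 3.95 normalized read counts). Whether counting used the strand is not given in the sources used here, so reads of these overlapping genes cannot be told apart, and counts over the whole gene do not show which exons were lost.

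Transcripts of PRC2, the complex that places the same mark, differed little. Of 13 PRC2 genes listed, 12 were tested, 0 were called by edgeR or DESeq2, 0 had an unadjusted p under 0.05 in edgeR and 1 did in DESeq2, and their median log2 fold change was 0.01. The catalytic subunit Ezh2 was at 3080.3, 2659, and 2801 normalized read counts in WT and at 2831, 2854, and 2836 in Kdm6bΔ/+, and the 95% interval of its log2 fold change ran from -0.18 to 0.17. The intervals of the core subunits Eed (-0.31 to 0.13) and Suz12 (-0.12 to 0.25) also covered 0. Among the accessory subunits, Epop had the largest log2 fold change, 0.64, with an interval of -0.04 to 1.32. Kdm6a was at 1959.6, 2146, and 1986 in WT and at 1206, 1994, and 1269 in Kdm6bΔ/+. Its low values stood in the 2 libraries with Y-linked transcripts, where Uty was at 516 and 576 against at most 1.04 in the other 4 libraries. When Y-linked transcripts entered a fit of all 4 genotypes as a term, the log2 fold change of Kdm6a was 0.01, beside -0.44 without the term, and the log2 fold change of Kdm6b was -0.51.

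A gene was called when the adjusted p was under 0.05 and the fold change above 1.5. By this rule 15 genes differed, which is 0.0948% of the 15825 tested, with 12 higher in Kdm6bΔ/+ (0.0758%) and 3 lower (0.0190%). At an unadjusted p under 0.05 there were 552 genes (3.49%), 205 of them higher (1.30%) and 347 lower (2.19%). Every Kdm6bΔ/+ library lay above every WT library for 653 genes (4.13%) and below for 760 genes (4.80%). The median log2 fold change over all genes was -0.003. The 12 genes that rose were 4 pseudogenes (Eif5al3-ps, Gm5823, Gm18860, and Eif3s6-ps2), Gm49980, and 7 protein-coding genes, and Hba-a2 and H2-Ab1 were among the 3 that fell.

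**Figure D1:**
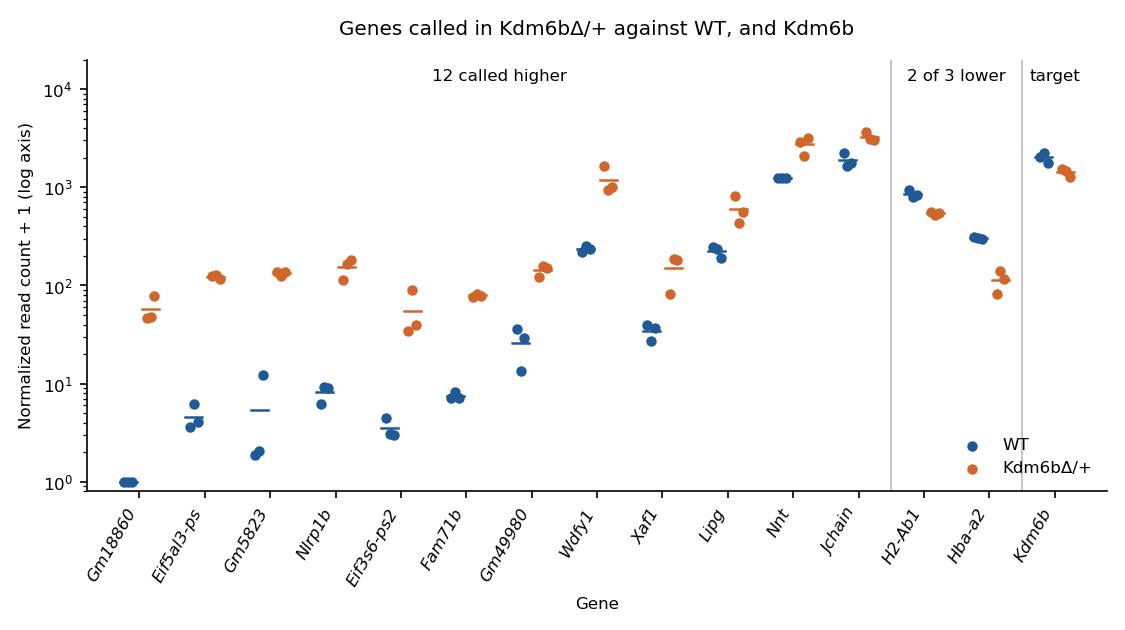
Normalized read count plus 1 (log axis) of 14 of the 15 called genes and of the target Kdm6b in each of the 3 WT (blue) and 3 Kdm6bΔ/+ (orange) libraries, with short bars at the group means. Pseudogenes such as Eif5al3-ps and Gm18860 rose from near 0, Nnt and Jchain rose from levels above 1000, and Kdm6b moved less than any called gene.

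The pseudogene Eif5al3-ps (chr5:90132229-90132675) had the smallest adjusted p. Its normalized read count was 2.61, 5.19, and 3.05 in WT and 124, 125, and 117 in Kdm6bΔ/+, a log2 fold change of 5.05 (SE 0.38, edgeR adjusted p = 0.000214). The Kdm6bΔ/+ libraries were close together and far above the WT libraries. Gm5823, a pseudogene at chr18:79958991-79959707 (RefSeq, GRCm38.p6), went from 0.87, 1.04, and 11.2 to 136, 124, and 136 (log2 fold change 4.92, SE 0.59). Gm18860 (chr8:71704205-71704968) had 0 counts in all 3 WT libraries and 45.4, 47.2, and 78.0 normalized read counts in Kdm6bΔ/+, which is at least 58.7-fold higher when WT is set to 3 counts over the group. Eif3s6-ps2 (chr18:90310868-90312190) went from 3.48, 2.08, and 2.03 to 33.5, 88.6, and 38.5, with replicate 2 more than the others (log2 fold change 4.32, SE 0.60). Processed pseudogenes resemble the transcripts they derive from, and how the counting split reads between such copies is not given in the sources used here, so these counts are uncertain. Over all 483 pseudogenes tested, 4 were called higher and 0 lower by edgeR, 12 and 9 had an unadjusted p under 0.05, and the median log2 fold change was -0.02.

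Among the called protein-coding genes, Nlrp1b had the largest rise. Nlrp1b encodes an inflammasome sensor that is known to differ between mouse strains. Its normalized read count was 5.22, 8.31, and 8.14 in WT and 112, 166, and 179 in Kdm6bΔ/+, a log2 fold change of 4.39 (SE 0.35, edgeR adjusted p = 0.000214). All Kdm6bΔ/+ libraries were more than 10 times any WT library. Fam71b (chr11:46396559-46407982) rose from 6.09, 7.27, and 6.10 to 75.3, 81.1, and 78.0 (log2 fold change 3.57, SE 0.38, edgeR adjusted p = 0.00199), with little spread in either group. Xaf1, an interferon-inducible partner of the apoptosis inhibitor XIAP, rose from 38.3, 26.0, and 35.6 to 81.3, 184, and 179.7 (log2 fold change 2.15, SE 0.34, edgeR adjusted p = 0.0431). Xaf1 was called in 4 of the 14 fits tried, whereas Nlrp1b and Eif5al3-ps were called in all 14.

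Wdfy1, which encodes an endosomal protein with FYVE and WD repeat domains, was at 219, 250.4, and 232 normalized read counts in WT and at 1627, 945, and 1016 in Kdm6bΔ/+. The lowest Kdm6bΔ/+ library was well above the highest WT library (log2 fold change 2.35, SE 0.20, edgeR adjusted p = 0.00113). Wdfy1 (chr1:79702262-79776143) overlaps the genes Gm10555 and Mrpl44. Nnt, the mitochondrial transhydrogenase that makes NADPH and that C57BL/6J mice are known to lack as a working enzyme, was at 1244, 1243, and 1234 in WT and at 2919.8, 2061, and 3195 in Kdm6bΔ/+ (log2 fold change 1.14, SE 0.14, edgeR adjusted p = 0.0109). The WT libraries were nearly equal, and the Kdm6bΔ/+ libraries were all above them. The annotation holds overlapping gene models of this name, so the counted region is uncertain. Lipg, endothelial lipase, rose from 243, 237, and 190.2 to 808, 435, and 553 (log2 fold change 1.42, SE 0.21, edgeR adjusted p = 0.0301). Gm49980, which has no position in the annotation used, rose from 34.8, 12.5, and 28.5 to 121, 156, and 149. The joining chain of polymeric antibodies, Jchain, was at 2215, 1664, and 1775 in WT and at 3642, 3128, and 3026 in Kdm6bΔ/+ (log2 fold change 0.79, SE 0.11, edgeR adjusted p = 0.0202), and is taken up with the immunoglobulin genes below.

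Hba-a2, an alpha-globin gene, fell from 309.8, 305, and 295 normalized read counts in WT to 80.1, 139, and 116 in Kdm6bΔ/+ (log2 fold change -1.44, SE 0.21, edgeR adjusted p = 0.0202), and H2-Ab1, an MHC class II chain, fell from 932, 794, and 841 to 555, 524, and 548 (log2 fold change -0.66, SE 0.11, edgeR adjusted p = 0.0452). Just outside the threshold lay Ighv5-16, an immunoglobulin segment (2.55, adjusted p = 0.0539), Pttg1, the securin that restrains separase before anaphase (2.17, adjusted p = 0.0703), and Bmpr1a, a receptor for bone morphogenetic proteins (-0.79, adjusted p = 0.0996), all as log2 fold changes with edgeR's adjusted p. Pttg1 was at 61.8, 141, and 151 in WT and at 538, 407, and 639.9 in Kdm6bΔ/+, and Bmpr1a at 779.6, 971, and 789 against 544, 529, and 401, so neither gene's groups overlapped. Pttg1 lies on the chromosome of Kdm6b (chr11:43420250-43426251).

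**Figure D2:**
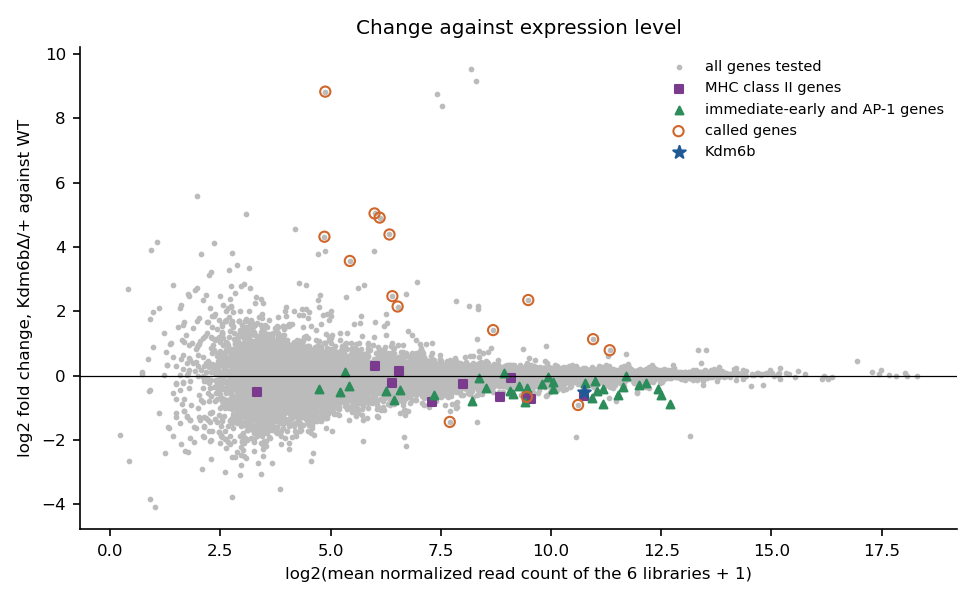
log2 fold change of Kdm6bΔ/+ against WT for each of the 15825 genes tested, plotted against the log2 of the mean normalized read count of the 6 libraries plus 1. Orange circles mark the 15 called genes, purple squares the 11 MHC class II genes, green triangles the 35 immediate-early and AP-1 genes, and the blue star Kdm6b at -0.51, and most genes lie near 0.

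Of the 15 called genes, 4 lie on the chromosome of Kdm6b, 2 of them within 5 Mb of it. Of the 1221 genes tested on chromosome 11 besides Kdm6b, 3 were called higher (Nlrp1b, Xaf1, and Fam71b) and 1 lower (Hba-a2), and of 14534 genes on the other chromosomes, 8 were called higher and 2 lower. Within 5 Mb of Kdm6b, 141 genes were tested and 2 were called, Nlrp1b at a distance of 1.74 Mb (chr11:71153102-71230733) and Xaf1 at 2.89 Mb (chr11:72301629-72313733). Nlrp1a, the paralog next to Nlrp1b at 1.68 Mb, was lower in every Kdm6bΔ/+ library, with 233, 190.1, and 168 normalized read counts in WT and 104, 87.7, and 111 in Kdm6bΔ/+, but did not pass the threshold (log2 fold change -0.97, SE 0.21, edgeR adjusted p = 0.304). At an unadjusted p under 0.01, there were 17 genes on chromosome 11, Kdm6b included, which is 1.39% of its 1222 genes, against 115 genes (0.727%) over all chromosomes. Chromosome 6, which holds the kappa light chain genes, had 19 such genes (2.06%). The 5 bins of 10 Mb from 30 to 80 Mb of chromosome 11 held 1.88% to 4.26% such genes, and the 5 bins from 80 to 130 Mb held 1 gene in all. From 0 to 30 Mb the bins held 1.22%, 4%, and 0%. Each bin held at most 4 such genes, so these shares are uncertain. A targeted allele carries the chromosome segment around it through breeding, and for genes near Kdm6b the effect of the deletion and that of the segment cannot be told apart. The substrain of the mice of each genotype is not given in the sources used here, so for called genes on other chromosomes, such as Nnt, Wdfy1, and the pseudogenes, the deletion and a difference in background cannot be told apart either. Of 11 genes listed as variable between mouse substrains or strains, 8 were tested, and 3 of these were called higher, Nlrp1b, Nnt, and Wdfy1, of which the last 2 are on chromosomes 13 and 1. This list was written with earlier results of these data known, so its count is no independent support.

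**Figure D3:**
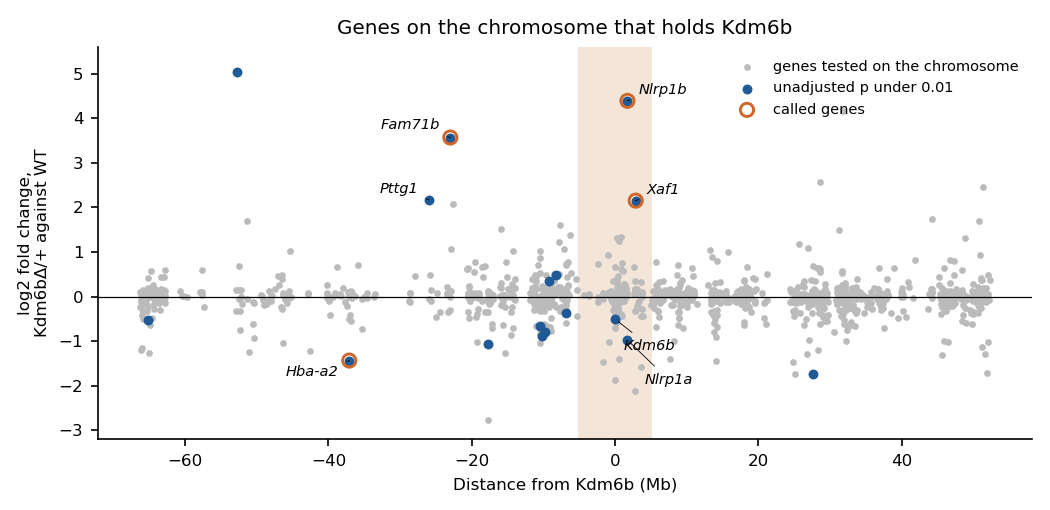
log2 fold change of Kdm6bΔ/+ against WT of each gene tested on chromosome 11 against its distance from Kdm6b in Mb. The shaded band covers 5 Mb on either side, blue points have an unadjusted p under 0.01, and orange circles mark the called genes Hba-a2, Fam71b, Nlrp1b, and Xaf1, and all blue points but Tbx21, at 27.7 Mb, lie at or to the left of Xaf1.

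MHC class II genes, whose products present peptides to CD4+ T cells, were among the groups with the lowest values in Kdm6bΔ/+. Their transcription is known to rest on CIITA, a coactivator that is recruited by factors on the conserved X and Y boxes of their promoters. All 11 genes listed were tested. H2-Ab1 was called lower by edgeR and 3 genes, H2-Ab1, H2-Aa, and Cd74, by DESeq2, 5 genes had an unadjusted p under 0.05, all lower, and the median log2 fold change was -0.50, beside -0.003 over all genes tested. Of all 15825 genes, 2.19% were lower at that p in edgeR, and 3 were called lower by edgeR and 15 by DESeq2. Every Kdm6bΔ/+ library lay below every WT library for 6 of the 11 genes, beside 4.80% of all genes. The promoters of 4 of these 6 genes are shown to place the Y box letters that they share and the X box letters, which were not found in this window of H2-Aa, as the 150 bases before the gene start from RefSeq (GRCm38.p6), written 5′ to 3′ on the strand of the gene. Capitals mark ATTGG or its reverse complement CCAAT, the core of the Y box, and AACNNATG, a core of the X box. H2-Ab1 and Cd74 are not shown.
H2-Aa (chr17:34287824-34287973, minus strand): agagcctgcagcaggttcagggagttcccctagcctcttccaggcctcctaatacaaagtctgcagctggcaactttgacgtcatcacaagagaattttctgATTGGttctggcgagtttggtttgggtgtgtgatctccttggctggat
H2-Eb1 (chr17:34305717-34305866, plus strand): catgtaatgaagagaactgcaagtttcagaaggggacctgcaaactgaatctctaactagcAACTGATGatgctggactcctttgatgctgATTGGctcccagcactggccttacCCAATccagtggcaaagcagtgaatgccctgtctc
H2-Ob (chr17:34238755-34238904, plus strand): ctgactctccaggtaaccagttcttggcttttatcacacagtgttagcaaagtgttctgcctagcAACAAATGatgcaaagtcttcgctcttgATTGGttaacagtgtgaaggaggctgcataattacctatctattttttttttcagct
H2-DMb1 (chr17:34153041-34153190, plus strand): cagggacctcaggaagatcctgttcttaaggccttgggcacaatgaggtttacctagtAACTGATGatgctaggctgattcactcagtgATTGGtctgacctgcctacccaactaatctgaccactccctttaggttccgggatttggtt
Of 32851 promoters, searched on both strands over the 250 bases before the start, 33.8% held ATTGG, 7.71% held AACNNATG, and 3.24% held both. Of the 11 MHC class II genes, 8 had a promoter in the table, of which 8 held ATTGG and 5 held both. These matches describe letters in the promoters, and none of the data here measured binding to them.

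The 6 genes whose groups did not overlap were those of classical class II chains and of their partners alike. H2-Aa, which encodes the alpha chain paired with the H2-Ab1 beta chain, was at 1035, 899.8, and 868 normalized read counts in WT and at 460.1, 698, and 545 in Kdm6bΔ/+ (log2 fold change -0.72, SE 0.15, edgeR adjusted p = 0.25). H2-Eb1, another beta chain, was at 538, 535, and 600 in WT and at 314, 456, and 292 in Kdm6bΔ/+, and Cd74, the invariant chain that escorts class II molecules, at 2171, 2112, and 2029.6 against 1200.0, 1759, and 1112. Neither passed edgeR's adjusted threshold, and Cd74 passed that of DESeq2. The peptide-loading genes differed among themselves: H2-Ob, a modulator of loading, was at 251, 189, and 154 against 135, 67.0, and 137, the lowest log2 fold change of the list (-0.81, SE 0.28), whereas H2-DMa overlapped, at 550 to 563 against 485 to 569. Ciita was at 38.3, 134, and 97.7 in WT and at 78.9, 88.6, and 62.2 in Kdm6bΔ/+, with overlap. The summed normalized read count of the 11 genes was 5888, 5733, and 5579 in WT and 3577, 4663, and 3602 in Kdm6bΔ/+, with the 2 lowest values in the libraries with Y-linked transcripts. In 1 fit of all 4 genotypes the median was -0.49, 1 gene had an unadjusted p under 0.05, and 0 were called by edgeR, and a term for Y-linked transcripts in that fit moved the median to -0.14 with the same counts. Without WT replicate 2 the median was -0.17, with 5 genes under that p and 1 called lower.

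Class II molecules are made by dendritic cells, B cells, and macrophages, so genes of these cells were read beside them. Of 29 genes of monocytes, macrophages, and dendritic cells, 4 had an unadjusted p under 0.05, all lower, 0 were called by edgeR and 1 by DESeq2, and the median was -0.08, with summed levels of 2238 to 2459 CPM in WT and 2194 to 2493 in Kdm6bΔ/+. Cd209a, a lectin of dendritic cells, was at 21.8, 26.0, and 26.5 normalized read counts in WT and at 0, 1.89, and 3.95 in Kdm6bΔ/+ (edgeR adjusted p = 0.464, DESeq2's only call in the list). The macrophage gene Adgre1 overlapped, at 337, 416, and 407 against 159, 346, and 263. Of 23 B cell genes tested, Jchain was called higher, 2 had an unadjusted p under 0.05 and were lower, among them Cd22 at 69.6, 54.0, and 54.9 against 32.3, 36.8, and 16.8, and the median was -0.33. Apart from Jchain their summed normalized read count overlapped, at 3206 to 6097 in WT and 2914 to 5310 in Kdm6bΔ/+. The part of these cells in the MHC class II values was not tested.

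Genes of T and NK cells had the lowest median of the cell type lists, -0.63 over 26 genes tested. Of these, 11 had an unadjusted p under 0.05, all lower, beside 2.19% of all genes lower at that p, and 0 were called by edgeR or DESeq2. For 10 of the 26 (38.5%) every Kdm6bΔ/+ library lay below every WT library, beside 4.80% of all genes. Lck, the kinase next to the T cell receptor, was at 157, 149.6, and 121 in WT and at 74.1, 75.4, and 88.9 in Kdm6bΔ/+ (log2 fold change -0.84, SE 0.22, edgeR adjusted p = 0.738). Ncr1, an activating receptor of NK cells, was at 83.5, 211, and 134 against 64.5, 73.6, and 44.4, and Eomes, a transcription factor of NK cells, at 40.9, 65.5, and 73.2 against 23.9, 31.1, and 13.8. WT replicate 2 was the highest library for Ncr1 but not for Lck or Eomes. The list is dominated by Nkg7, a gene that myeloid progenitors also express, which overlapped at 3096 to 3605 against 3218 to 4341. Without Nkg7, the summed normalized read count was 1140, 2032, and 1519 in WT and 877, 1007, and 888 in Kdm6bΔ/+, which is a small share of each library. Without WT replicate 2 the median was -0.46. In 1 fit of all 4 genotypes it was -0.63 with 6 genes under p of 0.05, and a term for Y-linked transcripts in that fit moved it to -0.21 with 1 such gene.

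Immunoglobulin gene segments stood out in the opposite direction. Of 165 segments tested, 38 had an unadjusted p under 0.05, all higher, 0 were called by edgeR and 7 by DESeq2, and the median log2 fold change was 0.70. Of all 15825 genes, 1.30% were higher at that p in edgeR, and 12 were called higher by edgeR and 24 by DESeq2. Every Kdm6bΔ/+ library lay above every WT library for 37 segments (22.4%), beside 4.13% of all genes, and below for 0. The summed normalized read count was 29655, 34947, and 34685 in WT and 50361, 66201, and 42053 in Kdm6bΔ/+, so the groups did not overlap. The median was alike for segments of the heavy chain (0.72, 81 segments), the kappa chain (0.68, 77 segments), and the lambda chain (0.69, 7 segments). Igkc, the constant region of the kappa chain, was at 7952, 8754, and 9017 in WT and at 14988, 18740.5, and 11171 in Kdm6bΔ/+ (log2 fold change 0.80, SE 0.16, edgeR adjusted p = 0.36). Igha, the constant region of IgA, was at 10530.5, 5389, and 6645 against 15378, 10879.5, and 12754 without overlap, whereas Ighm, that of IgM, overlapped at 4479.5, 12570, and 10969 against 7580, 21086, and 8180. Reads of such segments are shared among near-identical copies, and a few plasma cell clones can set the level of a segment in a mouse, so single segments are uncertain. Plasma cell genes chosen after the values were seen were mixed. Jchain was called higher, and Tnfrsf13b, the receptor TACI, was at 672, 747, and 571 against 877, 869, and 1048 without overlap but was not called by edgeR. Tnfrsf13b lies on the chromosome of Kdm6b (chr11:61126755-61149372). It also separated all 12 libraries, at 600 to 803 without the deletion and 914 to 1102 with it. Sdc1 was at 53.1 to 89.4 in WT and 83.0 to 91.8 in Kdm6bΔ/+, and Xbp1, Prdm1, Irf4, and Slamf7 overlapped too. Over the alternatives tried, the median of the segments stayed between 0.55 and 0.82.

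**Figure D4:**
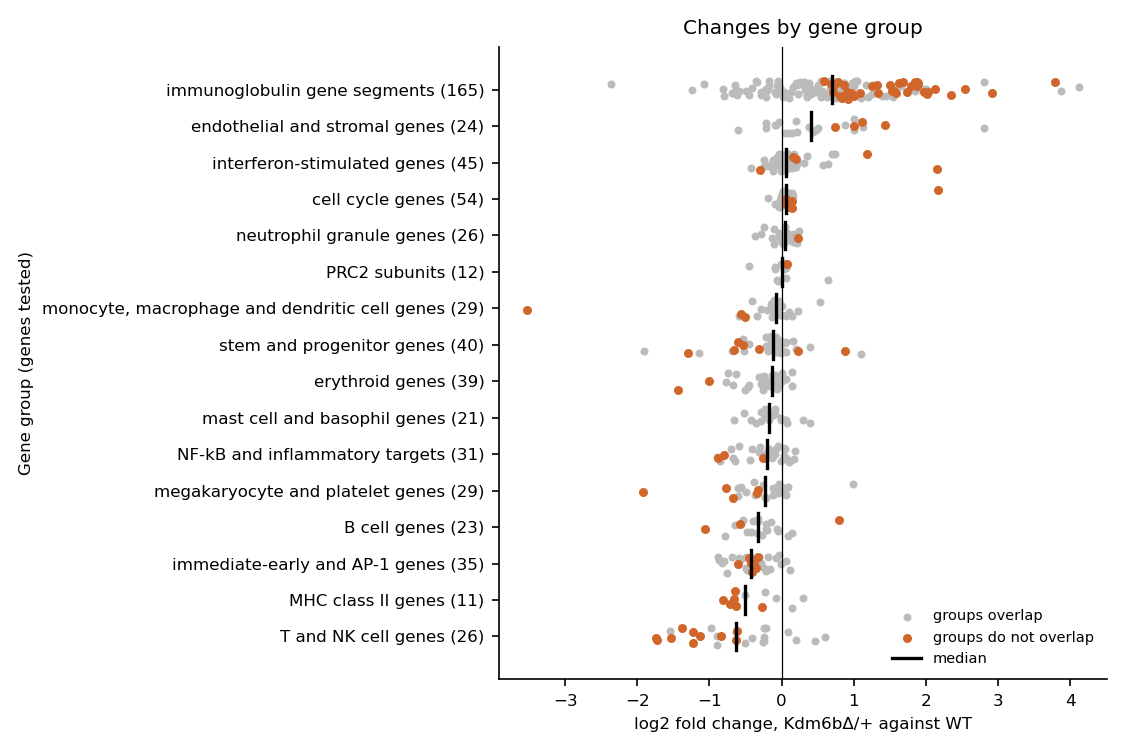
log2 fold change of Kdm6bΔ/+ against WT for each tested gene of 16 gene groups, with the number of genes tested in brackets and a black bar at the median. Orange points are genes whose groups of libraries do not overlap, and the medians run from -0.63 for T and NK cell genes to 0.70 for immunoglobulin gene segments.

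Immediate-early and AP-1 genes, which are switched on within minutes by growth factors, cytokines, and cell handling, were mostly lower. Of 35 genes tested, 33 were fitted lower, 12 had an unadjusted p under 0.05, all lower, and the median was -0.42, but 0 were called by edgeR or DESeq2. Of all genes, 2.19% were lower at that p. For 7 of the 35 (20%) every Kdm6bΔ/+ library lay below every WT library, beside 4.80% of all genes. Btg2, an antiproliferative gene, was at 2805, 2535, and 2658 in WT and at 2349, 2050.1, and 1569 in Kdm6bΔ/+ (log2 fold change -0.42, SE 0.12), Dusp5, a phosphatase of ERK, at 184, 190.1, and 215 against 136, 121, and 130.3, and Ier5 at 1426, 1018, and 1158 against 1011, 906, and 789. The AP-1 subunits themselves varied more between mice. Fos was at 13003, 3923, and 8723 in WT and at 5958, 3909, and 4111 in Kdm6bΔ/+, and Jun at 8996, 4396, and 5536 against 6664, 4271, and 3253, with overlap for both. The summed normalized read count of the 35 genes overlapped, at 83496, 50329, and 65521 against 57379, 47060, and 42132, and WT replicate 2 was the lowest WT library. Without that library 19 genes had an unadjusted p under 0.05 and 3 were called lower, while over all genes those lower at that p went from 347 to 531 and those called lower from 3 to 8. Without WT replicate 3 the list held 8 genes lower at that p, and without Kdm6bΔ/+ replicate 3 it held 6, with 0 called. Over all genes those counts were 448 and 242. Over the alternatives tried, the median of the list stayed between -0.48 and -0.30. Of 31 NF-kB and inflammatory targets tested, 4 had an unadjusted p under 0.05, all lower, 0 were called by edgeR and 1 by DESeq2, and the median was -0.20. Nlrp3, the inflammasome sensor encoded on chromosome 11 too, was at 269, 339.7, and 277 in WT and at 179, 169, and 159 in Kdm6bΔ/+ (log2 fold change -0.80, SE 0.17, edgeR adjusted p = 0.271), without overlap, whereas Ptgs2, cyclooxygenase, overlapped at 424, 164, and 293 against 165, 123, and 202.

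Genes of red cell differentiation differed between the libraries more than between the genotypes. Besides the fall of Hba-a2, Alas2, the erythroid enzyme that starts heme synthesis, was at 325, 272, and 315 in WT and at 133, 214, and 107 in Kdm6bΔ/+ (49.7% of WT, edgeR adjusted p = 0.464). The near-identical copy of Hba-a2, Hba-a1, overlapped at 548, 633, and 758 against 289, 783, and 288, so the split of reads between both copies is uncertain, and the beta-globin gene Hbb-bs was at 3375, 3600.1, and 3799 against 1337, 3513, and 1433. In each of these, the lowest 2 libraries were those of Kdm6bΔ/+ with Y-linked transcripts. Of 39 erythroid genes tested, 3 had an unadjusted p under 0.05, all lower, and the median was -0.14, but it was -0.46 without WT replicate 2, 0.015 without WT replicate 1, and 0.0085 without WT replicate 3. The direction of this list therefore turned when single WT libraries were left out.

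Of 29 megakaryocyte and platelet genes, 7 had an unadjusted p under 0.05 and were lower and 1 was higher, with 0 called by edgeR, 1 by DESeq2, and a median of -0.23. Of all genes, 2.19% were lower and 1.30% higher at that p. The median was -0.43 without WT replicate 2, -0.41 without Kdm6bΔ/+ replicate 2, and -0.12 without WT replicate 3, with 10, 7, and 3 genes lower at that p. Thbs1, thrombospondin, a matrix protein that activates latent TGF-beta, had the largest difference of the list. It was at 2252, 2901, and 2012 normalized read counts in WT and at 691, 838, and 367 in Kdm6bΔ/+, that is, at 26.5% of WT, and the groups were far apart (log2 fold change -1.92, SE 0.33, 95% confidence interval -2.74 to -1.10). Its adjusted p was 0.536 in edgeR and 0.00026 in DESeq2, and edgeR called it in some of the alternative fits, among them that without Kdm6bΔ/+ replicate 3, so the call depended on how the model was fitted. Selp, the adhesion receptor P-selectin, was at 215, 295, and 239 against 125, 173, and 169, and F2rl2, a thrombin receptor, at 92.2, 90.4, and 123 against 53.8, 67.9, and 56.3, neither with overlap. In the TGF-beta and thrombospondin list of 28 genes, which shares Thbs1, 5 had an unadjusted p under 0.05, all lower, with a median of -0.08, and Smad3, which carries the TGF-beta signal to the nucleus, was at 1381, 1230.2, and 1089.6 against 1017, 975, and 1027.

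The stem and progenitor genes that the study names were not called by edgeR. Gata2, a transcription factor of stem and progenitor cells, was at 1004, 700.3, and 1016 in WT and at 561, 791, and 543 in Kdm6bΔ/+ (log2 fold change -0.52, SE 0.18, 95% confidence interval -0.91 to -0.13, not passing edgeR's adjusted threshold), with overlap through WT replicate 2 and Kdm6bΔ/+ replicate 2. Its lower Kdm6bΔ/+ values stood in replicates 1 and 3, the libraries with Y-linked transcripts. Meis1 was at 365, 384, and 502 in WT and at 351, 358, and 417 in Kdm6bΔ/+, and Prdm16 at 93.1, 40.5, and 109 against 35.9, 88.6, and 94.8, with intervals of the log2 fold change from -0.48 to 0.18 and from -1.05 to 0.77. Hoxb5 had at most 6.60 normalized read counts in any of the 6 libraries. Of the 40 genes of the list, 2 had an unadjusted p under 0.05 and were higher, 4 were lower, 0 were called by edgeR or DESeq2, and the median was -0.12. Developmental regulators that PRC2 silences in blood mostly did not pass the expression filter. Of 125 listed, 22 were tested, of which 2 were higher and 3 lower at an unadjusted p under 0.05, with 0 called by edgeR or DESeq2 and a median of -0.15. Without the filter, 91 had counts, with 4 higher and 4 lower at that p in edgeR and a median of 0.0015. For 5 of the 22 (22.7%) every Kdm6bΔ/+ library lay below every WT library, beside 4.80% of all genes. The lowest log2 fold change was that of Bcl11b, a T cell transcription factor that the T and NK cell list also holds, at 17.4, 24.9, and 17.3 in WT and 5.98, 6.60, and 4.94 in Kdm6bΔ/+ (-1.74, SE 0.63). Bcl11b was also lower in every library with the deletion among all 12, at 5.19 to 14.4 against 18.2 to 26.2. Hoxa5 was at 35.7, 24.9, and 22.4 against 9.56, 17.0, and 6.91.

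Interferon-stimulated genes were examined because pI:pC was injected. Of 45 tested, Xaf1 was called higher, 1 more gene, Oas1g (11.3, 12.5, and 15.3 against 23.9, 29.2, and 35.5), had an unadjusted p under 0.05, and the median was 0.07. In 1 fit of all 4 genotypes the median was 0.07, with 18 genes fitted lower and 0 called. A term for Y-linked transcripts in that fit moved it to 0.24, with 4 genes fitted lower and 0 called. Without Kdm6bΔ/+ replicate 3 the median was -0.01. Ifit2 was at 627, 696, and 629 in WT and at 791, 748, and 705 in Kdm6bΔ/+, a log2 fold change of 0.20 with an interval of -0.03 to 0.43. Of 54 cell cycle genes, 43 were fitted higher, but the differences were small. For 9 of the 54 (16.7%) every Kdm6bΔ/+ library lay above every WT library, beside 4.13% of all genes. The median was 0.06, and 1 gene had an unadjusted p under 0.05, Pttg1, which lies on chromosome 11. By edgeR 0 were called and by DESeq2 1. Mcm7, part of the replicative helicase, was at 4607, 4345, and 4750.0 against 5218, 5112, and 4833. Of 26 neutrophil granule genes, 1 had an unadjusted p under 0.05, Gfi1, a transcriptional repressor that granulocyte differentiation needs, at 2230.2, 2097, and 1940.1 against 2337, 2256, and 2775, and 0 were called by edgeR or DESeq2. The neutrophil median was 0.04, but without WT replicate 2 it was 0.16 with 9 genes higher at that p, and without WT replicates 1 or 3, each left out alone, -0.025 and -0.042. Of 24 endothelial and stromal genes, 3 had an unadjusted p under 0.05, all higher, 0 were called by either tool, and the median was 0.41, which was 0.20 without Kdm6bΔ/+ replicate 3. Of 21 mast cell and basophil genes, 1 was higher and 1 lower at an unadjusted p under 0.05, and the median was -0.17.

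The same deletion was also compared on the Asxl1Y588XTg background, in libraries that the comparison with WT did not use. Y-linked transcripts were found in 3 of 3 Asxl1Y588XTg Kdm6bΔ/+ libraries and in 1 of 3 Asxl1Y588XTg libraries. These groups were therefore not matched in sex either, in the same direction as against WT. The part of sex in the values on this background was not tested. Of the 12 genes called higher, 11 were also fitted higher in Asxl1Y588XTg Kdm6bΔ/+ than in Asxl1Y588XTg, 7 with an unadjusted and 6 with an adjusted p under 0.05 in edgeR, whereas of all 7789 genes fitted higher against WT, 4062 were also fitted higher there and 28 passed the adjusted threshold. The 3 genes called lower were all fitted lower there, 1 with an unadjusted p under 0.05 and 0 with an adjusted p under 0.05, beside 4308 of 8036 of all genes fitted lower. Of the 15 called genes, 0 had an adjusted p under 0.05 in edgeR's test of the difference between both backgrounds, and 5 an unadjusted p under 0.05. Of all genes 2 passed the adjusted threshold of that test and 1087 the unadjusted one.

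Some of the called genes separated all 12 libraries by the Kdm6b genotype. Nlrp1b was at 5.49 to 26.2 normalized read counts in the 6 libraries without the deletion and at 118 to 188 in the 6 with it. Its log2 fold change on the Asxl1Y588XTg background was 3.62 (SE 0.38, edgeR adjusted p = 0.00409). Nnt was at 1139 to 1308 without the deletion and at 1959.8 to 3359.6 with it (log2 fold change on the Asxl1Y588XTg background 1.12, SE 0.15, adjusted p = 0.0209). Such a gap between the 2 sets of 6 libraries, in the upward direction, was found for 6 of the 12 genes called higher (Eif5al3-ps, Nlrp1b, Fam71b, Gm18860, Gm5823, and Nnt), beside 31 of all genes (0.196%), and in the downward direction for 0 of the 3 called lower, beside 41 of all genes (0.259%). Among genes just outside the threshold, Pttg1 (log2 fold change 1.27 on the Asxl1Y588XTg background, adjusted p = 0.000887) and Bmpr1a (-0.70, adjusted p = 0.0151) had it too. Kdm6b itself was at 2187 to 2303 in Asxl1Y588XTg and at 1649 to 1909 in Asxl1Y588XTg Kdm6bΔ/+, a log2 fold change of -0.30 (SE 0.07, edgeR adjusted p = 0.0717).

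The other called genes did not separate all 12 libraries. Wdfy1 was at 1028, 196, and 1009 in Asxl1Y588XTg and at 1025, 1709.8, and 241 with the deletion, with high and low libraries in both groups, and Lipg at 1005, 204, and 914 against 98.8, 364, and 162, the reverse of the order against WT (log2 fold change -1.77, SE 0.85, adjusted p = 0.432). Eif3s6-ps2 and Gm49980 likewise spread over both groups, at 5.03 to 141 against 22.0 to 144 and at 40.2 to 164 against 53.9 to 203. H2-Ab1 was at 2368, 1012, and 1071 against 561, 839.9, and 1424, with overlap (log2 fold change -0.65, SE 0.56, adjusted p = 0.307). Hba-a2 was at 202, 138, and 519 against 73.0, 79.0, and 53.6, and Jchain at 598, 1653, and 3603 against 6461, 6721, and 5053, both without overlap and in the same direction as against WT, but past no adjusted threshold. Xaf1 was at 103, 63.4, and 32.4 against 113, 121, and 145, also without overlap (log2 fold change 0.95, SE 0.36, edgeR adjusted p = 0.255). Thbs1 was at 746, 755, and 579 in Asxl1Y588XTg and at 835, 469.9, and 1241 with the deletion (log2 fold change 0.31, SE 0.39), and the test of the difference between backgrounds gave an adjusted p of 0.402 in edgeR. The median log2 fold change on the Asxl1Y588XTg background was -0.30 for MHC class II genes, -0.53 for immediate-early and AP-1 genes, -0.80 for T and NK cell genes, and 0.87 for immunoglobulin gene segments. Among other lists, B cell genes (0.47), erythroid genes (0.13), and interferon-stimulated genes (-0.60) had a median of the opposite sign to that against WT. The median of stem and progenitor genes was -0.87, beside -0.12 against WT. For Ncr1, Eomes, Lck, H2-Aa, and Cd74 the groups overlapped, and Asxl1Y588XTg replicate 1 was the highest of its group. Ncr1 was at 304.8, 37.2, and 53.7 against 71.6, 52.99, and 53.6, and Cd74 at 5954, 2215, and 2488 against 1582, 1989, and 3056. Bcl11b did not overlap, at 19.1 to 20.1 against 8.85 to 14.4. The part of replicate 1 in these medians was not tested.

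**Figure D5:**
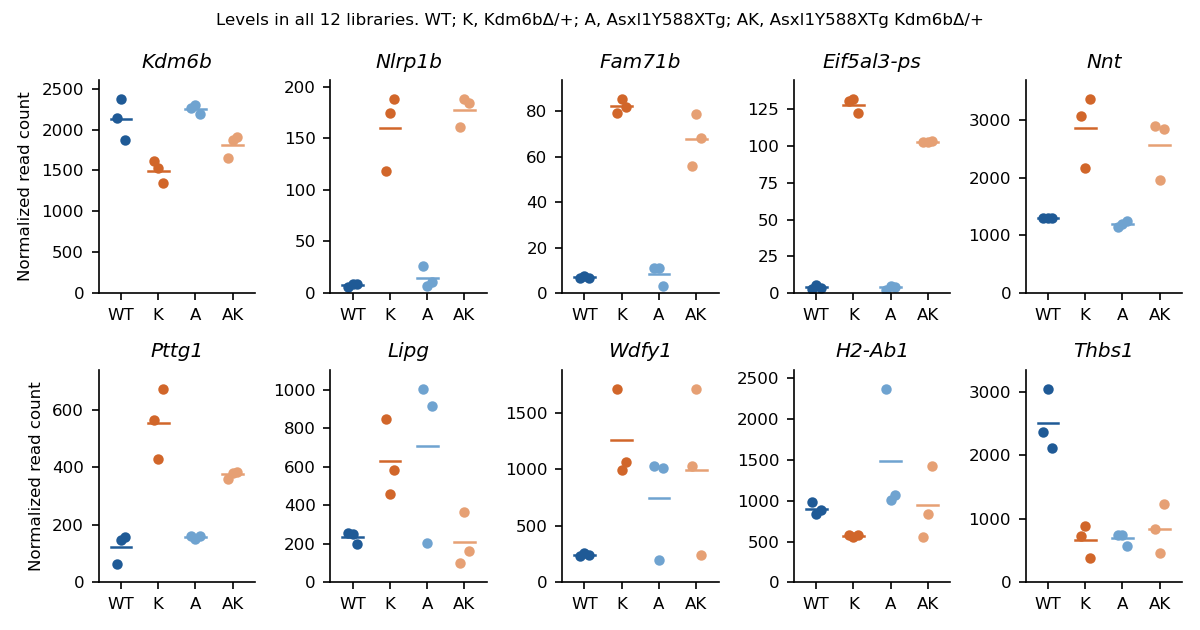
Normalized read count of 10 genes in each of the 12 libraries, by genotype: WT, K for Kdm6bΔ/+, A for Asxl1Y588XTg, and AK for Asxl1Y588XTg Kdm6bΔ/+, with short bars at the group means and each vertical axis starting at 0. Nlrp1b, Fam71b, Eif5al3-ps, Nnt, and Pttg1 are higher in all 6 libraries with the deletion, whereas Lipg, Wdfy1, H2-Ab1, and Thbs1 are not ordered by it.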

How the data were processed

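RNA-Seq was performed by the authors on LK cells of 12 mice, 1 library per mouse and 3 mice per genotype. Library kit and sequencer differ between the sources (NEB Ultra and NextSeq in the labels, KAPA stranded with ribosomal RNA depletion and HiSeq in the methods), and both give reads of 50 bases. The submitters' processing notes name FastQC, Trimmomatic, STAR, HTSeq, and mm10. The gene annotation and the strand setting used in counting are not given in the sources used here. The deposited values are the raw counts of 55291 genes per library, as whole numbers without normalization, and no column of another sample was left out. Columns were matched to samples by their labelled titles.

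Software versions were DESeq2 1.42.0, limma 3.58.1, edgeR 4.0.16, and R 4.3.3. Of all genes, filterByExpr over the 4 genotypes kept 15825 genes, and library sizes were scaled by TMM. Kdm6bΔ/+ was compared with WT by edgeR's robust quasi-likelihood test on the 6 libraries, using Benjamini-Hochberg correction across the genes that passed the filter, and genes were called with an adjusted p under 0.05 and a fold change above 1.5. Standard errors were derived from the F statistic. The p-values measure the spread between these mice, taken as independent. Whether mice shared a litter or a cage is not given in the labels. The spread within Kdm6bΔ/+ includes that between libraries with and without Y-linked transcripts, and the spread within WT does not. The comparison on the Asxl1Y588XTg background used its own 6 libraries, and the difference between backgrounds was tested in 1 fit of all 12. Positions are from GENCODE vM21 (mm10) or RefSeq (GRCm38.p6), and promoters are from RefSeq (GRCm38.p6). Gene lists were written from general knowledge and are described by counts and medians, without a set test. The members, lists, and rule for named genes were chosen with earlier results of these data known. The rule named Kdm6b, Kdm6a, Uty, PRC2 subunits, Meis1, Prdm16, Gata2, and Hoxb5, every called gene, the 10 genes of smallest p in each direction whose groups did not overlap and whose normalized count averaged 100 or more, up to 3 genes of each list, and 5 genes within 5 Mb of Kdm6b, 90 genes in all, of which 1 called gene is not reported here; members of a list given beyond these complete its description and were chosen after their values were seen.

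Alternatives were DESeq2, RLE scaling, all 4 genotypes in 1 fit, no expression filter, only genes averaging 50 counts or more, the replicate number as a block, a term for Y-linked transcripts, only the libraries without Y-linked transcripts, leaving out each library, and leaving out chromosomes X and Y or 11. The steps were tested on simulated counts. Precision is limited by 14451522 to 19208274 counted reads per library and by 3 mice per group.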

Additional observations from a re-analysis of the deposited data

How the results depend on the processing

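The count of genes called higher was 12 and that of genes called lower was 3. They were 24 and 15 with DESeq2, 7 and 0 with all 4 genotypes in 1 fit, 26 and 27 without an expression filter, 7 and 3 with a mean count of at least 50, 6 and 0 when Y-linked transcripts were a term, and 10 and 0 in only the libraries without Y-linked transcripts, where 1 Kdm6bΔ/+ library, replicate 2, was set against 3 WT libraries and was assumed to vary like them. At an unadjusted p under 0.05, the 3 fits with 0 genes called lower by edgeR had 899, 438, and 165 genes in both directions. RLE scaling gave 13 and 3, leaving out chromosomes X and Y gave 12 and 3, and leaving out chromosome 11, chosen after seeing the data, gave 9 and 2. Without 1 library, between 6 and 15 genes were called higher and between 1 and 11 lower. The counts were 6 and 1 without WT replicate 3, 10 and 8 without WT replicate 2, 7 and 2 without Kdm6bΔ/+ replicate 1, and 15 and 11 without Kdm6bΔ/+ replicate 2. The cause of these differences was not tested.

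Replicate numbers did not pair the libraries, since the deviations from the group means of libraries with the same number had a Pearson r across genes of 0.08, -0.18, and -0.15. With the replicate number as a block, 17 genes were called higher and 5 lower, H2-Ab1 and Xaf1 were no longer called, Thbs1 was newly called, and 13 of the 15 genes were still called. The log2 fold change of Kdm6b was between -0.58 and -0.42 over the 14 alternatives and passed the adjusted threshold in 2 of them, DESeq2 (0.0191) and no expression filter (0.00045), with a fold change below 1.5.

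Of the 15 called genes, Nlrp1b and Eif5al3-ps were called in all 14 alternatives, Fam71b, Gm18860, and Gm5823 in 12, Wdfy1 in 11, Jchain in 9, Nnt, Hba-a2, and Eif3s6-ps2 in 8, Gm49980 in 7, H2-Ab1 and Lipg in 5, and Xaf1 in 4. Over all named genes and alternatives, 1102 values stayed on their side of the threshold with the same direction or, for values not called, within 1 SE, 54 newly passed it, 67 no longer passed it, 8 uncalled values changed sign by more than 1 SE, and 0 called values reversed. Of the list medians, 288 stayed within the spread and 20 moved. Precision is limited by 3 mice per group, and the effect of depth was not tested.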
